A study of Sus scrofa with 22 samples.

Results

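The nuclear genes for the subunits of oxidative phosphorylation were examined in cells isolated by laser capture microdissection (LCM) from the endometrium of pigs on Day 12. The members were chosen by symbol, as the NDUF subunits of complex I, the SDH subunits of complex II, the UQCR subunits of complex III, cytochrome c (CYCS), the COX subunits of complex IV and the ATP5 genes of complex V (ATP synthase). Of 70 annotated genes that match, 68 were listed in the count tables, among 12401 listed genes in all, and all 68 were listed for each of the 3 cell types. They comprise 36 genes of complex I, 4 of complex II, 2 of complex III, 8 of complex IV including NDUFA4, 17 of complex V and CYCS. ATP5S and ATP5SL carry the prefix of complex V but are no structural subunits of it, and they were kept because the rule goes by symbol. The pig annotation gives 14 further listed subunit genes of complexes III and IV a LOC number in place of a symbol, and these are not members. Subunits encoded by the mitochondrial genome were not analysed here.

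The study compared the epithelium of the uterine lumen (LE), that of the glands (GE) and the stroma (S) between pregnant and cyclic (control) gilts to describe the response of each cell type to the conceptus. The animals were prepuberal crossbreds of German Landrace and Piétrain whose cycles were synchronised with PMSG and hCG. Pregnant gilts (numbers 01, 03, 05 and 14) were inseminated with semen of a German Landrace boar, and control gilts (02, 04, 06 and 13) received the supernatant of centrifuged semen of that boar. Gilts were counted as pregnant when elongated (filamentous) conceptuses were flushed from the uterus. LE and GE have 1 library from each of 4 pregnant and 4 control gilts, S has 3 of each and lacks gilts 03 and 06, which makes 22 libraries from 8 gilts. S is not a pure cell type, because leukocytes and further cells were captured along with the fibroblasts. The counts per library on listed genes were between 893912 and 4020796, and 3 counts correspond to 0.746 to 3.36 CPM, the unit that scales counts to a common library total.

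Oxidative phosphorylation is the process by which mitochondria couple the oxidation of nutrients to the synthesis of ATP. Complexes I and II feed electrons from NADH and succinate into the inner mitochondrial membrane, complex III and cytochrome c pass them on, and complex IV transfers them to oxygen. The protons pumped on the way drive ATP synthase, in which a ring of subunit c turns within the membrane and the alpha and beta subunits make ATP. On Day 12 the conceptuses elongate and secrete estrogen, and the epithelium of the endometrium facing them is a secretory tissue.

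The labelled cell types were only partly separated by markers, and S was not separated from GE. The 8 epithelial markers summed to between 3129 and 5458 CPM in LE, between 802 and 3453 in GE and between 1234 and 4832 in S. The 8 fibroblast markers summed to between 7756 and 20635 CPM in LE, between 4359 and 46221 in GE and between 4709 and 59664 in S, so that they did not set S apart. Each fibroblast marker had a negative log2 fold change of S over GE, from −0.69 (VIM) to −0.13 (LUM). Each epithelial marker had a positive one, from 0.03 (EPCAM) to 1.32 (KRT7). These directions are opposite to the labels, and no marker differed between S and GE at a false discovery rate below 0.05. The highest fibroblast sums came from the control GE library of gilt 02 and the pregnant S library of gilt 01, which also had the lowest epithelial sums of GE and S. The 4 leukocyte markers listed for all cell types stayed between 53.1 and 208 CPM in sum, the 6 endothelial markers between 64.9 and 1828, and the 3 smooth muscle markers between 13.96 and 7640. No marker listed for all cell types was at 0 in any library. In such bulk samples, fewer cells of a type and less RNA per cell cannot be told apart.

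Transcripts of ATP synthase made up the largest part of the members' expression. Complex V accounted for 48.6% of the members' summed CPM (mean of 22 libraries, 45.9 to 51.7%), complex I for 26.8% (22.8 to 29.8%), complex IV for 15.6% (13.2 to 18.6%), complex II for 5.51% and complex III for 2.15%. Complexes III and IV were counted without their LOC-named subunits, such as COX4 isoform 1 with a mean of 157 CPM. Their shares and ranks are thus those of the members alone and not of the whole complexes. Per kb of exon, the highest mean levels were those of ATP5B, the catalytic beta subunit, with 237 CPM per kb, and ATP5A1, the alpha subunit, with 220. ATP5I (subunit e, which joins ATP synthase into dimers) followed with 217, NDUFA4 with 213, ATP5O of the stalk with 204 and COX5B, a structural subunit of complex IV, with 197 CPM per kb. The lowest were ATP5S with 4.93, NDUFV3 with 8.52 and NDUFS4 with 14.7 CPM per kb. Within complex IV, COX7A2, the form known from many tissues, had 105 CPM per kb and its heart and muscle paralog COX7A1 had 22.02. The order of the 68 genes by level per kb was nearly the same in the cell types, with Spearman's rho of 0.972 between LE and GE, 0.983 between LE and S and 0.988 between GE and S, given as a description over genes measured in the same libraries.

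The summed level of the 68 genes was highest in LE of pregnant gilts. In control LE it was 4485, 4595, 5098 and 4685 CPM in gilts 02, 04, 06 and 13 (4716 ± 268, mean ± SD, n = 4), and in pregnant LE it was 5463, 6348, 5251 and 5496 CPM in gilts 01, 03, 05 and 14 (5640 ± 485, n = 4). These 8 libraries did not overlap after TMM normalization, which scales libraries to each other by the bulk of genes. With scaling to library size alone the ranges overlapped, at 4570 to 5332 CPM in control and 4901 to 5725 CPM in pregnant LE. The summed epithelial markers also did not overlap, with 3129 to 3774 CPM in control LE and 3946 to 5458 CPM in pregnant LE, but the 8 markers went in opposite directions. CLDN4, MUC1 and CDH1 were higher in each pregnant than in each control LE library, and the keratins KRT7, KRT8, KRT18 and KRT19 were lower, such as KRT8 with 937 to 1154 CPM in control and 271 to 539 CPM in pregnant LE. EPCAM overlapped. Their part in the difference of the subunits was not tested.

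In GE the sums were 3168, 4331, 4000 and 4229 CPM in control gilts 02, 04, 06 and 13 (3932 ± 528, n = 4) and 4395, 3750, 4653 and 5158 CPM in pregnant gilts 01, 03, 05 and 14 (4489 ± 586, n = 4). In S they were 3665, 4686 and 5031 CPM in control gilts 02, 04 and 13 (4460 ± 710, n = 3) and 3562, 5208 and 3742 CPM in pregnant gilts 01, 05 and 14 (4171 ± 903, n = 3). Pregnant and control libraries overlapped in both cell types, and the lowest of each cell type were the libraries with the highest fibroblast sums, control GE of gilt 02 and pregnant S of gilt 01. Gene by gene, the highest of the 6 group means was that of pregnant LE for 46 of 68 members (30.7% of all genes) and the lowest was that of control GE for 27 members (14.8% of all genes).

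**Figure D1:**
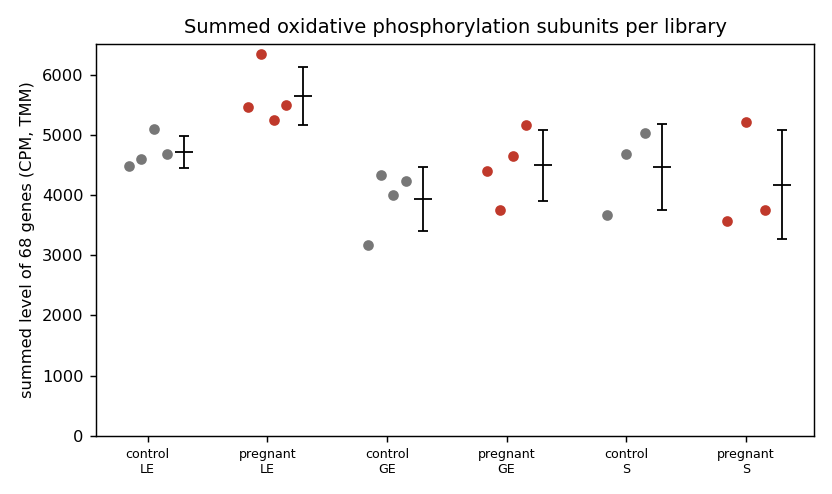
Summed level of the 68 subunit genes in CPM after TMM normalization (vertical axis) for each library (points) in the 6 groups, with mean and SD beside them. Pregnant LE lies between 5251 and 6348 CPM, above the 4485 to 5098 CPM of control LE, whereas pregnant and control overlap in GE and in S.

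The clearest difference among the subunits was between the epithelia, with lower levels in GE than in LE. Cell types were compared in 1 fit of all 22 libraries with the gilt as a block, averaging pregnant and control gilts, and a gene was called at a false discovery rate (FDR) below 0.05. Of the 68 members, 24 were lower and 1 was higher in GE. Among all 10643 genes, 35.2% were called, 18.3% lower and 16.9% higher. The number called was thus close to that of all genes, and the direction was not. The median log2 fold change (log2 FC, GE over LE) was −0.27 for the members, 19.1% of which were positive, and −0.02 for all genes. Within gilts, 20 members were lower in GE than in LE in each of the 8 gilts (9.11% of all genes) and 1, NDUFV2, was higher in each (8.96%). The median difference of the members within a gilt lay between −0.71 (gilt 03) and −0.09 (gilt 14) on the log2 scale. Fewer members were called without gilt 03 (15) or gilt 04 (16), in control gilts alone (3) and in pregnant gilts alone (5), and without the control GE library of gilt 02 and the pregnant S library of gilt 01 there were 19 lower and 1 higher.

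In complex V, 9 of 17 genes were lower in GE, namely ATP5A1, ATP5B, ATP5C1, ATP5D and ATP5O of the catalytic head and the stalk and ATP5G1, ATP5G3, ATP5I and ATP5L of the membrane part. ATP5G3, 1 of 3 genes for the same mature subunit c, is at chr15:81091037-81094297 of Sscrofa11.1. It had 146, 100, 91.0 and 126 CPM in LE and 73.0, 88.4, 68.5 and 70.6 CPM in GE of control gilts 02, 04, 06 and 13. In pregnant gilts 01, 03, 05 and 14 it had 188, 239, 220 and 178 CPM in LE and 112, 65.03, 118 and 91.4 CPM in GE. Every LE library of ATP5G3 was thus above the GE library of the same gilt, and the log2 FC was −0.87 (SE 0.16, FDR 0.00108 in the quasi-likelihood test of edgeR with Benjamini-Hochberg adjustment, as for all FDR values below). ATP5G1, at much lower levels, had the lowest log2 FC of all members with −0.89 (SE 0.22, FDR 0.00638), and 11.5% of its exon windows of 50 bases occur elsewhere in the genome. ATP5G2, the third gene for subunit c, had a log2 FC of −0.06 (SE 0.12, 95% interval −0.32 to 0.21).

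The catalytic subunits went the same way. ATP5A1 (chr1:95738789-95750835) had 341, 384, 510 and 409 CPM in LE and 287, 302, 329 and 284 CPM in GE of the control gilts in the above order. In the pregnant gilts it had 630, 661, 497 and 612 CPM in LE and 397, 275, 426 and 350 CPM in GE. LE and GE did not overlap in control gilts nor in pregnant gilts, and the log2 FC was −0.60 (SE 0.13, FDR 0.00387). ATP5B was lower by a similar amount, with −0.55 (SE 0.13, FDR 0.00658), as was ATP5I (chr8:112092-113526) with −0.55 (SE 0.12, FDR 0.00404). The only member called higher in GE was ATP5E, the epsilon subunit of the rotor, with 0.45 (SE 0.15, FDR 0.0339). Its LE libraries lay between 156 and 211 CPM and its GE libraries between 148 and 395 CPM, with the lowest GE value in gilt 02. Its exons overlap those of TUBB1, so that reads may have been shared between these genes. Such overlaps with other genes were found for 18 members. Among these were ATP5C1, ATP5L, COX6C, NDUFA8, NDUFB11 and SDHA, which were called lower in GE. The call of ATP5E was lost without the gilt block (log2 FC 0.52) and without any one of gilts 04, 05, 13 or 14 (0.37 to 0.45).

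In complex IV, COX5B and COX6C were lower in GE and the other 6 members were not called. COX5B (chr3:56630297-56632107) had 90.6, 107, 127 and 112 CPM in LE and 45.8, 57.6, 96.1 and 69.0 CPM in GE of the control gilts, and 128, 151, 157 and 153 CPM in LE and 61.3, 66.3, 88.3 and 110 CPM in GE of the pregnant gilts. It was lower in GE in each of the 8 gilts and had the smallest FDR of all members, with a log2 FC of −0.81 (SE 0.13, FDR 0.000484). COX6C had a log2 FC of −0.44 (SE 0.14, FDR 0.0236). COX7A1, the muscle form, was near the floor, at 3.17 to 12.0 CPM in LE and 3.83 to 17.8 CPM in GE, and its interval of −0.69 to 0.82 leaves its direction undetermined at this depth.

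In complex I, 10 of 36 subunits were lower in GE, among them NDUFS1 and the accessory subunits NDUFS4, NDUFA8, NDUFA10, NDUFA13, NDUFB2, NDUFB5, NDUFB7 and NDUFB11. NDUFA13, an accessory subunit also known as GRIM-19, had a log2 FC of −0.70 (SE 0.16, FDR 0.00490). NDUFS1, which carries iron-sulfur clusters, differed least, with −0.26 (SE 0.09, FDR 0.0376), and NDUFV1, which binds the NADH, was not called (−0.42, SE 0.16, FDR 0.0651). SDHA, the flavoprotein of complex II, was lower (−0.47, SE 0.11, FDR 0.00599), whereas its partner SDHB, the iron-sulfur protein, had −0.01 (SE 0.13, interval −0.29 to 0.28). SDHA exons overlap CCDC127. In complex III, UQCRB was lower (−0.58, SE 0.11, FDR 0.00188) and UQCR10 was not called (−0.14, SE 0.18, FDR 0.588). CYCS was lower with −0.69 (SE 0.17, FDR 0.00715), but 40.7% of its exon windows occur elsewhere in the genome, the highest share of all members, so its counts are uncertain.

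The epithelial markers summed to less in GE than in LE in both states, with 802 to 2586 CPM in control GE and 2473 to 3453 CPM in pregnant GE against the sums for LE given with the summed levels of the subunits. Single markers went the other way, as EPCAM was higher in GE than in LE in 3 of 4 control gilts, and KRT19 had 89.2 to 354 CPM in pregnant GE and 10.5 to 68.1 CPM in pregnant LE. Their part in the difference between GE and LE was not tested.

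**Figure D2:**
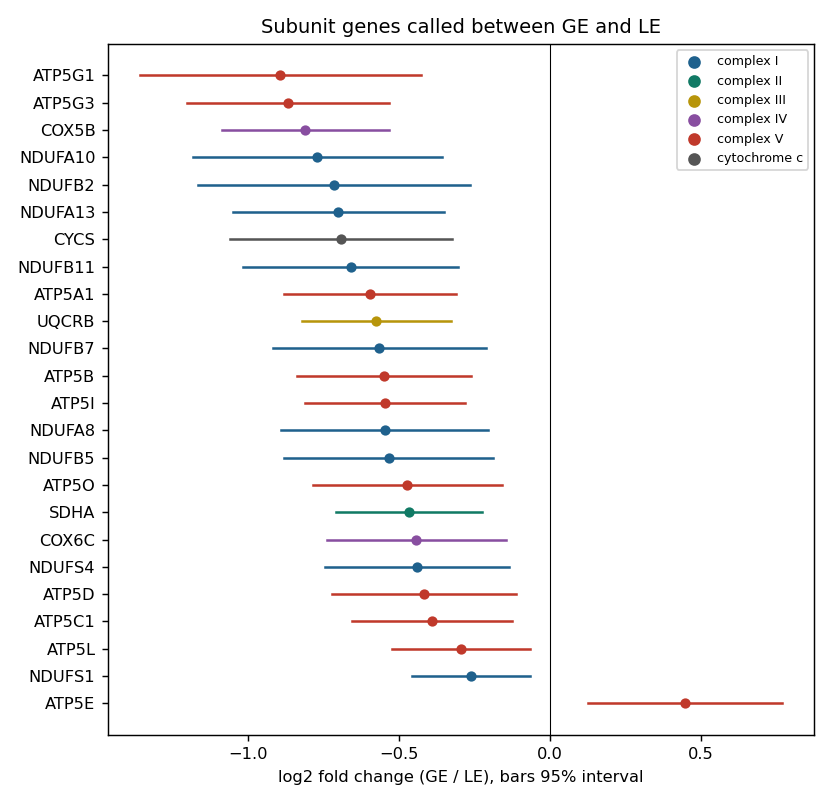
Log2 fold change between GE and LE (horizontal axis, negative is lower in GE) with 95% interval for 24 of the 25 subunit genes called at an FDR below 0.05, coloured by complex. The values of the genes lower in GE range from −0.89 (ATP5G1) to −0.26 (NDUFS1), and ATP5E is positive at 0.45.

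The sequences before the start sites of members that were low in GE are shown because these genes were called in the same direction between GE and LE. For all 68 members, a window from 250 bases before to 50 bases after the annotated start of the gene was read from the RefSeq genome and annotation of Sscrofa11.1. Both strands were searched for 4 motifs of factors known to act on nuclear genes of mitochondria. The 7 letters CCGGAAG, a core for ETS factors such as GABPA, were found in 26.5% of the members' windows, compared with 11.0% of the windows of 19545 protein-coding genes on chromosomes and 15.7% of those of listed genes. The letters AAGGTCA, to which estrogen-related receptors bind, were found in 16.2%, 3.78% and 3.40%, the core motif of NRF1 in 5.88%, 1.13% and 1.68%, and the YY1 motif in 4.41%, 0.727% and 1.07%. The median GC content of the windows was 58.5% for the members, 58.7% for these protein-coding genes and 61.7% for listed genes. The 120 bases before the start are printed 5′ to 3′ on the strand of the gene for 4 members lower in GE. Matches to CCGGAAG or AAGGTCA, or to the reverse complement of either, are in capitals. Each of these 4 held a match, whereas most of the 24 members lower in GE, such as UQCRB, held neither in the searched window.
ATP5G3, chr15:81094298-81094417, minus strand: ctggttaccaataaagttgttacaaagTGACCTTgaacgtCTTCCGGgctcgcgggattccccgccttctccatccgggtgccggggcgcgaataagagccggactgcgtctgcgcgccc
ATP5G1, chr12:25110420-25110539, plus strand: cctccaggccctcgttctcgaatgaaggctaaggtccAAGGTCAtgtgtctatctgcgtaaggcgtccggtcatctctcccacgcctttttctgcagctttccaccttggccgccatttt
ATP5A1, chr1:95750836-95750955, minus strand: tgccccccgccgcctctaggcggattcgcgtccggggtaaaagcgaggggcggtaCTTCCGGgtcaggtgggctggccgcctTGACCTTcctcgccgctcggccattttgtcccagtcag
COX5B, chr3:56632108-56632227, minus strand: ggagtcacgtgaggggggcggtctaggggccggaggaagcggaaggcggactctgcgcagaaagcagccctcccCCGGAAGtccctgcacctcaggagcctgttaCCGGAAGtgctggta
The capitals did not overlap each other. ATP5G3 and ATP5A1 each held the ETS letters and the AAGGTCA letters, ATP5G1 held AAGGTCA alone, and COX5B held the ETS letters at 2 places. Among the 24 members lower in GE, 33.3% held CCGGAAG and 20.8% AAGGTCA, and among the other 44 members these shares were 22.7% and 13.6%. The NRF1 core was held by 8.33% and 4.55%, and the YY1 motif by 0% and 6.82%. A match is a description of the letters in the window, and binding was not measured.

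Fewer members were called between S and LE than between GE and LE, although the members' median difference was similar in size. The median SE of the members was 0.165 for S against LE and 0.148 for GE against LE. In S, 3 members were lower than in LE and none was higher, where 8.02% of all genes were called (2.26% lower, 5.76% higher), and the median log2 FC (S over LE) was −0.25 for the members and −0.03 for all genes. COX5B had 72.5, 73.6 and 119 CPM in S of control gilts 02, 04 and 13 and 50.5, 105 and 62.8 CPM in S of pregnant gilts 01, 05 and 14, with a log2 FC of −0.65 (SE 0.14, FDR 0.0197). ATP5I had −0.60 (SE 0.14, FDR 0.0220). ATP5G3, with 81.9, 96.7 and 110 CPM in control S and 102, 149 and 57.3 CPM in pregnant S, had −0.73 (SE 0.17, FDR 0.0251). The same 3 genes were among those lower in GE, and both comparisons use the same LE libraries. Lower levels in S than in LE in each of the 6 gilts were seen for NDUFA8, NDUFB2, NDUFB5, ATP5G3 and ATP5I (6.77% of all genes), and a higher level in each for NDUFC2 (7.83%). These calls were not stable, since none was made without gilt 01, 02, 04 or 14, without the gilt block or in control gilts alone, while 8 were made without gilt 05. Without the libraries with the highest fibroblast sums, COX5B and ATP5G3 were called.

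Between S and GE no member was called with edgeR or with DESeq2, nor was any other gene (0%) with edgeR. At an unadjusted p below 0.05, 4 members were higher and 1 was lower in S (7.52% and 5.72% of all genes). The median log2 FC was 0.02, and for 67 of 68 members the 95% interval lay within 2-fold in either direction. The largest difference upwards was that of NDUFA13 with 0.52 (SE 0.18, FDR 0.242).

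Pregnant against control was tested within each cell type, with the thresholds of the study, which are an FDR below 0.01 for LE and, for GE and S, a p below 0.0021 without adjustment. No member was called in LE by edgeR, compared with 10% of all genes (6.33% higher, 3.71% lower), none in GE (0.694%, of which 0.574% higher and 0.12% lower) and none in S (1.47%, of which 0.425% higher and 1.05% lower). With DESeq2 at the same thresholds, ATP5G3 was called in LE, COX7A2 in GE and none in S. At an unadjusted p below 0.05, 15 members were higher and 1 was lower in pregnant LE (19.3% and 16.2% of all genes), 1 was higher and none lower in pregnant GE (4.74% and 3.35%), and 1, NDUFA5, was lower and none higher in pregnant S (5.96% and 6.51%). The 95% interval lay within 2-fold for 58 of the 68 members in LE (45.7% of all genes), 52 in GE (49.3%) and 37 in S (30.7%).

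The median log2 FC (pregnant over control) of the members was 0.20 in LE, 0.18 in GE and 0.00 in S, next to 0.01, −0.02 and 0.08 for all genes. Positive values were found for 76.5% of members in LE, 77.9% in GE and 50% in S, next to 50.5%, 47.7% and 56.5% of all genes. In LE the values of both medians depended on the scaling, but that of the members stayed above that of all genes. With library size alone the median was 0.047 for the members and −0.14 for all genes. Pregnant and control libraries did not overlap for 13 members higher in pregnant LE (14% of all genes) and 1 lower (12.7%), for 3 members higher in pregnant GE (2.9%), and for 4 members lower in pregnant S (10%). In S no member was separated upwards (7.23% of all genes), and in GE none downwards (2.23%).

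**Figure D3:**
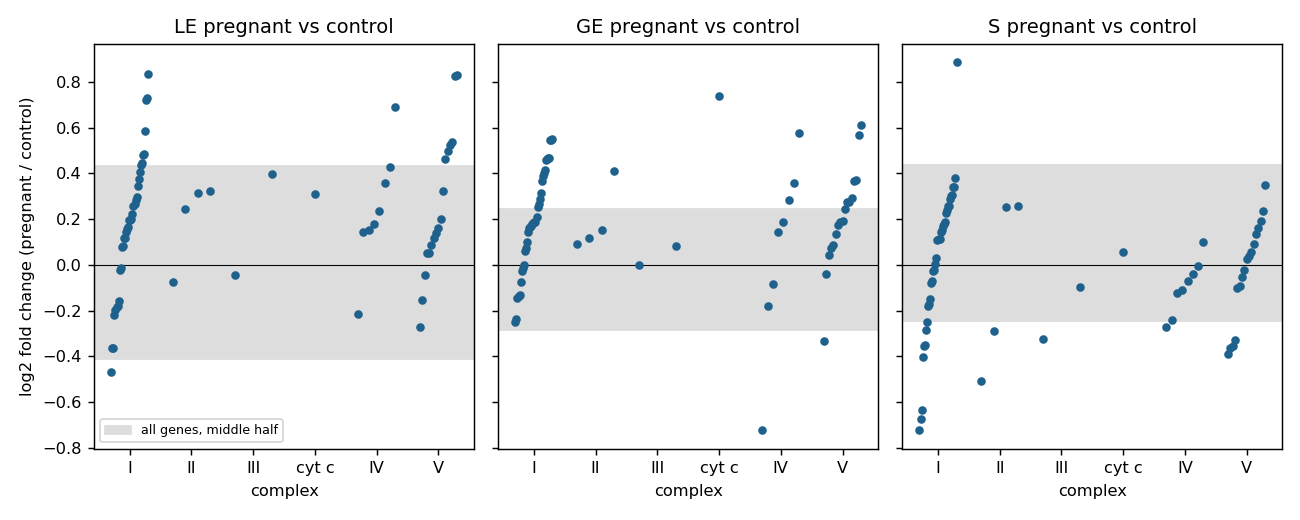
Log2 fold change between pregnant and control gilts (vertical axis) of each of the 68 subunit genes (points, sorted within each complex) in LE, GE and S. The grey band holds the middle 50% of all genes tested in that cell type; the members' medians are 0.20 in LE, 0.18 in GE and 0.00 in S.

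In LE, ATP5G3 had the smallest p of all members. Its 4 pregnant libraries, at 178 to 239 CPM, were above its 4 control libraries at 91.0 to 146 CPM, with a log2 FC of 0.83 (SE 0.19, FDR 0.0123), which missed the threshold of 0.01. It was 0.37 (SE 0.22, FDR 0.719) in GE and 0.14 (SE 0.36, FDR 0.931) in S. ATP5G1 had 16.2 to 20.3 CPM in control LE and 22.5 to 53.0 CPM in pregnant LE, which did not overlap, and with an FDR of 0.0502 (log2 FC 0.83, SE 0.27) it was not called. ATP5G2 had 83.3 to 103 CPM in control and 76.8 to 110 CPM in pregnant LE, with −0.04 (SE 0.17, FDR 0.878).

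The makeup of the subunit c transcripts can be given as shares. That of ATP5G3 in the summed CPM of the 3 genes was 54.3, 49.4, 43.8 and 53.1% in control LE (gilts 02, 04, 06 and 13) and 55.1, 62.4, 68.9 and 61.3% in pregnant LE (gilts 01, 03, 05 and 14), without overlap. It was 41.6 to 43.5% in control GE and 42.4 to 56.9% in pregnant GE, where gilt 05 alone stood above the others, and 44.4 to 48.9% in control S and 38.4 to 56.6% in pregnant S. This share was chosen after the values had been seen, so no p-value is given for it.

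**Figure D4:**
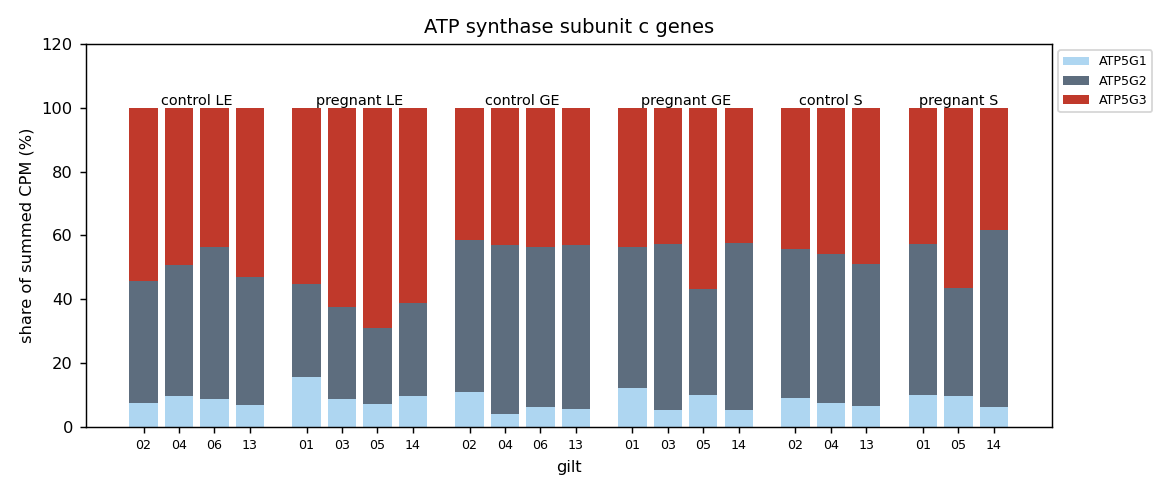
Shares of ATP5G1, ATP5G2 and ATP5G3 in their summed CPM (vertical axis, %) for each library, named by gilt and ordered by group. ATP5G3 takes 43.8 to 54.3% in control LE and 55.1 to 68.9% in pregnant LE, and its share overlaps between pregnant and control in GE and S.

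COX7A2, a small subunit of complex IV, had pregnant libraries above the control libraries in both epithelia. In LE it had 39.5, 44.1, 48.0 and 43.8 CPM in control and 66.2, 98.2, 56.2 and 64.6 CPM in pregnant gilts (log2 FC 0.69, SE 0.20, FDR 0.0319). In GE it had 34.5, 31.8, 39.8 and 38.9 CPM in control and 54.2, 51.0, 60.4 and 51.0 CPM in pregnant gilts, with 0.58 (SE 0.17, FDR 0.425). Neither value passed its threshold in edgeR. In S the groups overlapped, at 36.7 to 54.8 and 34.9 to 56.6 CPM, with 0.10 (SE 0.30, FDR 0.942). ATP5J2 (subunit f of ATP synthase) was also separated in GE, with 0.37 (SE 0.17, FDR 0.631).

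Among the subunits of complex I in LE, NDUFA12 had the largest log2 FC with 0.84 (SE 0.31, FDR 0.0752), from 27.1 to 31.4 CPM in control to 33.7 to 92.4 CPM in pregnant LE, where gilt 03 was highest. NDUFB9 (0.73, SE 0.22, FDR 0.0406), NDUFA9 (0.72, SE 0.21, FDR 0.0350) and NDUFA2 (0.59, SE 0.18, FDR 0.0451) had FDR values below 0.05 but not below 0.01, and the exons of NDUFA2 overlap TMCO6. NDUFC2 was the only member whose libraries were separated downwards in LE. It had 92.5, 92.0, 108 and 87.4 CPM in control and 73.5, 63.7, 64.5 and 74.4 CPM in pregnant LE, with −0.47 (SE 0.15, FDR 0.0484). In GE its pregnant libraries spread from 54.1 to 141 CPM around the control range of 65.3 to 90.2 CPM, with 0.31 (SE 0.29, FDR 0.827). The difference between these responses, −0.70 (SE 0.26), had an FDR of 0.179.

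In S, NDUFA5 had 50.3, 50.9 and 62.9 CPM in control gilts 02, 04 and 13 and 24.8, 30.8 and 44.4 CPM in pregnant gilts 01, 05 and 14, with −0.67 (SE 0.29, p 0.0492, FDR 0.398 in edgeR). NDUFS1 was at 122 to 124 CPM in control and 83.4 to 95.5 CPM in pregnant S, with −0.40 (SE 0.20, FDR 0.481), and SDHA and NDUFA11 were the other members separated downwards. None of these passed the threshold. The extremes were NDUFA3 with 0.89 (SE 0.52) and NDUFA11 with −0.72 (SE 0.40), both at 15.5 CPM or less in S. In GE the extremes were CYCS with 0.74 (SE 0.35, FDR 0.647) and COX7A1 with −0.72 (SE 0.50, FDR 0.752).

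**Figure D5:**
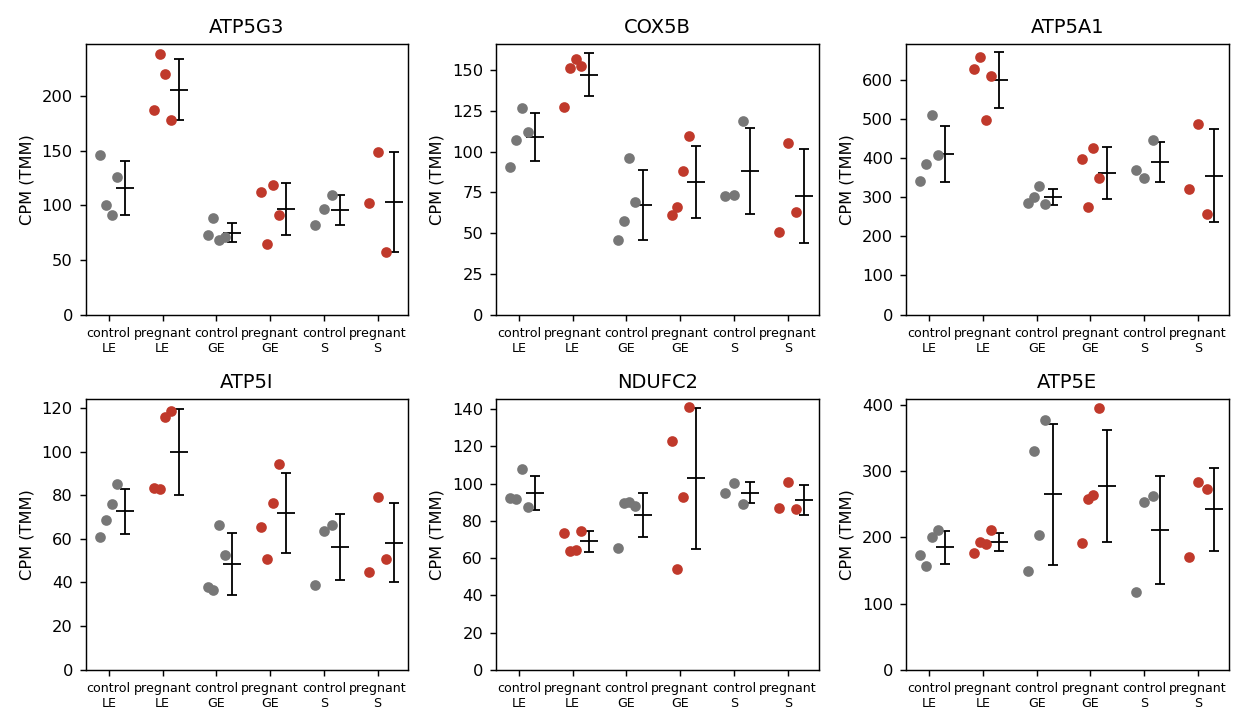
CPM after TMM normalization (vertical axis) of 6 subunit genes in each library (points, grey control, red pregnant) with mean and SD of each group. ATP5G3, COX5B, ATP5A1 and ATP5I are lower in GE than in LE, NDUFC2 is at 63.7 to 74.4 CPM in pregnant LE below the 87.4 to 108 CPM of control LE, and ATP5E reaches 395 CPM in GE.

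Whether the response to pregnancy differed between cell types was tested by interaction terms in the fit of all libraries (FDR below 0.05). No member was called with edgeR or DESeq2 between LE and GE, LE and S or GE and S, where 2.93%, 0.047% and 0% of all genes were called with edgeR. At an unadjusted p below 0.05, 1 member, NDUFC2, had a lower response in LE than in GE and none a higher one (8.63% of all genes each). In 6 members the response was higher in LE than in S and in none lower (8.59% and 6.65%), and in 6 it was higher in GE than in S and in none lower (5.68% and 4.22%). The median of the members' differences was 0.00 between LE and GE, 0.31 between LE and S and 0.27 between GE and S, next to 0.03, −0.01 and −0.02 for all genes. Without the libraries with the highest fibroblast sums, the medians against S were 0.15 for LE and 0.13 for GE. The largest difference was that of COX5B between LE and S with 0.89 (SE 0.29, FDR 0.190).

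Other genes of mitochondria and of energy metabolism were counted by list for comparison. Among all genes, 18.3% were called lower and 16.9% higher in GE than in LE. Between GE and LE, 6 of 13 genes of the citric acid cycle were lower and 2 higher (median log2 FC −0.32), as were 15 and 1 of 74 mitochondrial ribosomal proteins (−0.23), 3 and 1 of 12 biogenesis factors (−0.20) and 2 and 0 of 7 carriers and porins of the mitochondrial membranes (−0.26). Of 18 assembly factors of the complexes, 1 was lower and 1 higher (−0.07). Of 16 glycolytic genes 10 were lower and 1 higher (−0.49), and of 80 cytosolic ribosomal proteins 16 were lower and 3 higher (−0.14).

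Of these lists, glycolysis held the most calls in LE in response to pregnancy, where 6.33% of all genes were called higher and 3.71% lower. In pregnant LE, 4 of 16 glycolytic genes were higher and none lower (median 0.55), namely HK2, which phosphorylates glucose (3.61), LDHA, which forms lactate (1.47), GAPDH (1.07) and ALDOA (0.95). Among 7 carriers and porins, VDAC1, the pore of the outer membrane (1.13), and SLC25A3, the phosphate carrier (0.80), were higher. Among 12 biogenesis factors, PPARGC1B, a coactivator of mitochondrial genes, was lower (−1.50). None of 13 genes of the citric acid cycle (median 0.09) and none of 20 assembly factors (0.06) was called. Of the ribosomal proteins, 1 of 76 mitochondrial ones was higher and 1 lower (0.08), and 3 of 80 cytosolic ones were higher (0.27). In GE, 17 of 17 glycolytic genes had a positive log2 FC (median 0.54), a larger share than that of all genes given above. None of them was called (0.694% of all genes). In S, where 1.47% of all genes were called, the only glycolytic gene called was LDHB with 4.67 (median of 17 genes 0.45). The response of LDHB was not called different between LE and S (−0.91, SE 0.49, FDR 0.419) or between GE and S (−0.61, SE 0.49, FDR 0.745). Its rise is thus not shown to be particular to S.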

How the data were processed

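LE, GE and S were captured after Cresyl violet staining, and single-read libraries were made with Ovation SoLo. The authors mapped reads with Hisat2 to Sscrofa11.1, removed PCR duplicates, filtered genes by CPM and deposited read counts per gene without normalization, 1 table for each cell type. The counting tool and its use of strand are not given in the sources used here. The labels tie libraries of the same number to 1 gilt. Deviations from group means correlated within gilts with a median r of 0.257 between LE and GE, 0.314 between LE and S and 0.468 between GE and S.

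Counts were fitted with the quasi-likelihood test of edgeR 4.0.16 (R 4.3.3, TMM) over all listed genes, per cell type (11415 genes in LE, 11676 in GE, 11532 in S) or jointly with the gilt as a block (10643 genes). CPM values are TMM-normalized over the joint genes. DESeq2 1.42.0 was an alternative. The procedure was tested on simulated data in which 200 genes changed 2-fold. For pregnant against control it found 1 of them in LE, 22 in GE and 16 in S. It also called 0, 21 and 26 unchanged genes there. It found 150 between GE and LE, 113 between S and LE and 121 between S and GE. For differences in response it found 1 (LE and GE) and 0 (LE and S). In the simulation a 2-fold change with pregnancy thus mostly went uncalled. Its changed genes were drawn from all listed genes, and in LE the median SE was 0.201 for the members and 0.266 for all genes. In the data 1146 genes were called in LE, many more than were changed in the simulation, so the FDR threshold was not equally strict. The simulation therefore does not tell how many members with such a change would go uncalled. Members and lists were chosen with earlier results of these data known. Named with values were called members (the 10 of smallest p), the highest and lowest of each complex, the extremes of each comparison, paralogs, catalytic subunits and, from other lists, called genes (4 of smallest p). The values of 1 member are not reported here, though counts include it. Further members were chosen after their values were seen.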

Additional observations from a re-analysis of the deposited data

Results flagged for a closer look

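Of 124 groups of 4 libraries that were tested, 5 held a library far from the other 3, by the ratio of its gap to the range of the group. About 5% of groups are expected to do so by chance. In control LE, NDUFA12 was lowest in gilt 02 with 27.08 CPM (others 31.0 to 31.4), UQCRB was highest in gilt 13 with 61.84 CPM (others 51.5 to 52.6), and NDUFS1 was highest in gilt 06 with 140.4 CPM (others 104 to 107). In control GE, NDUFC2 was lowest in gilt 02 with 65.28 CPM (others 87.9 to 90.2), in the library that also had the highest fibroblast and the lowest epithelial marker sum of GE. ATP5G2 was highest in gilt 04 with 108.8 CPM in control GE (others 79.1 to 83.7).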

How the results depend on the processing

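Alternatives were RLE or library size instead of TMM, the filterByExpr filter, a minimum of 10 counts in all libraries of the fit, DESeq2, other thresholds, only gilts with an S library, 1 state alone, no gilt block and leaving out each gilt. Across these alternatives, results of single named genes stayed the same 418 times, were weaker 40 times and were never recorded as reversed. The numbers of called members and the members' medians stayed the same 276 times and moved 22 times. A change of sign was not recorded separately for these. For pregnant against control in LE, the members' median was 0.047 with library size alone, where the median of all genes was lower as well. In this comparison 1 member was called with DESeq2 and 1 at p below 0.0021 (ATP5G3 both times). At an FDR below 0.05, 6 were called (5 higher, NDUFC2 lower), and with a gilt left out 0 to 2 (NDUFB9 and ATP5G3 without gilt 14). In GE, DESeq2 called 1. For GE against LE, 13 were called at p below 0.0021, 13 at an FDR below 0.01, 3 in control gilts, 5 in pregnant gilts and 15 to 24 with a gilt left out. For S against LE, none (0) was called at an FDR below 0.01, in control gilts or without the gilt block, and 0 to 8 with a gilt left out. Without the replicate block, 22 members were called between GE and LE, all lower, and 0 between S and GE. The median difference in response between LE and S ranged from 0.16 to 0.51 and that between GE and S from 0.12 to 0.44 with a gilt left out, each highest without gilt 05. The alternative without the libraries of highest fibroblast sums was chosen after seeing the data. The causes were not tested. Separate libraries of a group come from different gilts. Low depth leaves members near the floor, such as COX7A1, NDUFA3 and ATP5S, with wide intervals, and 3 libraries per group in S leave 37 of 68 intervals within 2-fold.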

Other observations

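The listed subunits that the annotation names only by a LOC number are those of complexes III and IV, among them the Rieske protein, cytochrome c1 and COX4 isoform 1. Between GE and LE, 5 of 13 were lower and 1 was higher (median log2 FC −0.35). In S they were lower than in LE for 3 of 13 (median −0.31). The genes lower in both comparisons were LOC100524239 (complex III subunit 10), LOC100525869 (cytochrome c1) and LOC100522725 (complex IV subunit 8A). In response to pregnancy, none of 13 was called in LE or S and none of 14 in GE with edgeR, and 1 in LE and 1 in S had an unadjusted p below 0.05.

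LOC100524308, subunit 8 of complex III, had pregnant libraries below the control libraries in LE and in S. In LE it had 74.8, 94.96, 122 and 95.3 CPM in control gilts 02, 04, 06 and 13 and 45.8, 47.8, 58.0 and 66.8 CPM in pregnant gilts 01, 03, 05 and 14, with a log2 FC of −0.82 (FDR 0.0167). In S it had 79.5, 77.3 and 87.1 CPM in control gilts 02, 04 and 13 and 24.8, 43.2 and 35.2 CPM in pregnant gilts 01, 05 and 14, with −1.20 (FDR 0.140). Neither value passed the threshold of its cell type, and the gene was chosen after its values were seen.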
